A study of Mus musculus with 2 samples.

Results

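Mir375 and the 3 mouse genes that encode miR-7 (Mir7-1, Mir7-2 and Mir7b) were examined in the facial prominences of mouse embryos. These 4 miRNA genes, known from pituitary and other endocrine cells, were chosen by name among the 1973 miRNA genes with a row in the count tables, and each had a row. Facial prominences are the buds of mesenchyme and covering epithelium that form the face and jaws. The tissue came from untreated embryos of strain B6NCrl at embryonic day 14.5, and all samples form a single group of 2 biological replicates with no control or other condition. The labels speak of the face of 1 pup for each replicate but call the sex pooled, and they do not settle which of these holds. Values therefore describe the level of each gene in this tissue and how far the replicates lie apart.

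MicroRNAs are short RNAs that guide Argonaute proteins to messenger RNAs, mainly by pairing through the seed, bases 2 to 8. miR-375 is among the most abundant miRNAs of pancreatic islet cells, where it restrains insulin secretion, and it is also found in the pituitary and in some epithelial and sensory cells such as Merkel cells of the skin. miR-7 is enriched in islets, the pituitary and neuroendocrine neurons. It is bound in the brain by the circular RNA Cdr1as, which carries many sites for it, and it is degraded through the long noncoding RNA Cyrano. The data are reads per miRNA gene, so RNAs that bind miR-7 were not measured here.

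The miR-7 sequences are shown because a single base separates the products of these genes, and because identical products decide what can be counted. Mature sequences from RefSeq (GRCm38.p6) are given 5′ to 3′ with the seed in capitals.
miR-7a-5p (Mir7-1 and Mir7-2): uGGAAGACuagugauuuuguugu
miR-7b-5p (Mir7b): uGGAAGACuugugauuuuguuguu
miR-7a-1-3p (Mir7-1): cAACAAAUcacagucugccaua
miR-7a-2-3p (Mir7-2): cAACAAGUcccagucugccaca
miR-7b-3p (Mir7b): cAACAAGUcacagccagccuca
miR-375-5p (Mir375): gCGACGAGccccucgcacaaac

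The 5′ products of all 3 miR-7 genes carry the seed GGAAGAC, which no other of the 1679 mature miRNA names in the RefSeq table has. Counted from the 5′ end, miR-7a-5p and miR-7b-5p differ by A10U over the 23 bases they can be compared on, outside the seed, and miR-7b-5p is listed 1 base longer, at 24 bases. The 3′ products differ more. miR-7a-1-3p and miR-7a-2-3p differ at 3 of 22 positions (A7G, A10C and U21C), the first of which lies in the seed. miR-7a-2-3p and miR-7b-3p share their seed and differ at 4 positions (C10A, U14C, U16A and A20U). miR-375-5p shares its seed with no other entry, and miR-375-3p, the 3′ product that is the usual active strand of this gene, is named only.

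The hairpins show where the products lie, with the products listed by RefSeq in capitals.
Mir375 hairpin: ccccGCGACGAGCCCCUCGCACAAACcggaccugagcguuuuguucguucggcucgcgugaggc
Mir7-1 hairpin: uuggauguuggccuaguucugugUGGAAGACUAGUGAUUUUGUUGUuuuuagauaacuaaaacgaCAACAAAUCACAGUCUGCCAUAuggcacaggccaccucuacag
Mir7-2 hairpin: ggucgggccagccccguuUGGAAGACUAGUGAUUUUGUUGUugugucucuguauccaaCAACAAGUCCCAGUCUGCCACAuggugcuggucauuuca
Mir7b hairpin: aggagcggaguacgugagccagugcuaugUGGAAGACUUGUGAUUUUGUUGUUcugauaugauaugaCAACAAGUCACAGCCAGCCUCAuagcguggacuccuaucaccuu

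Mir7-1 and Mir7-2 have a run of 24 bases in common, which holds all 23 bases of miR-7a-5p and the base after it. Of the 2202 miRNA genes of the annotation, Mir7-2 was the only other gene with any 18-base stretch of Mir7-1, and the reverse. A read of miR-7a-5p that ends within this run fits both genes exactly. The deposited tables have the layout of counts in which reads with several positions go to a summary row, which held 29.8% of the reads of replicate 1 and 28.5% of those of replicate 2. Under that rule such a read is counted for neither gene, and the files do not give how many there were. What is counted for Mir7-1 and Mir7-2 is then made of reads that reach outside the run, such as 3′ products and 5′ products of at least 25 bases or with an earlier start. Mir7b and Mir375 share no 18-base stretch with any other miRNA gene. The longest run of Mir7b in common with Mir7-1 or Mir7-2 was 14 bases. Counts of Mir7b thus stand for miR-7b if reads had to match exactly. How reads with a mismatch were placed is not given, and A10U is the only substitution between the 5′ products. Counts of Mir7-1 and Mir7-2 do not give the level of miR-7a-5p. Products of the 5′ and 3′ arm are counted together for each gene.

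**Figure D1:**
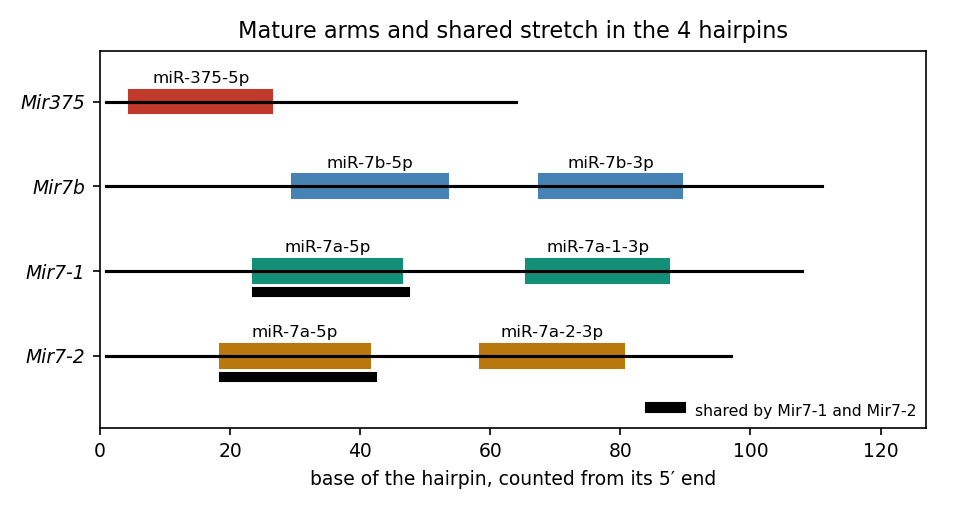
Map of the 4 hairpins, with bases counted from the 5′ end on the x axis, mature products as coloured boxes and the 24-base run common to Mir7-1 and Mir7-2 as a black bar. The bar covers miR-7a-5p in both genes, and no such bar exists for Mir375 or Mir7b.

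The genes lie on different chromosomes of mm10. Mir375 (ENSMUSG00000065616.2) is on chromosome 1 at 74900658 to 74900721, minus strand, overlaps no other gene, and lies 1350 bases from Cfap65 and 7515 bases from Cryba2, a crystallin gene. Mir7-1 (ENSMUSG00000065434.1) is on the minus strand of chromosome 13, at 58392779 to 58392886, in an intron of the protein-coding transcripts of Hnrnpk on the same strand, a gene for a widely expressed RNA-binding protein. It also falls inside 4 transcripts of Hnrnpk that are annotated as retained introns, none of which has an exon there. Mir7-2 (ENSMUSG00000065609.1) is on chromosome 7 at 78888277 to 78888373, plus strand, overlaps no gene and lies 7481 bases from Aen. Mir7b (ENSMUSG00000065491.1) is on chromosome 17 at 56242988 to 56243098, plus strand, overlaps no gene and begins 183 bases after the long noncoding RNA gene AC026385.1. No member had a read on the opposite strand in either library.

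Replicate 1 had 2719153 gene-strand miRNA counts and replicate 2 had 6602050, so a single count is worth 0.368 and 0.151 CPM (counts scaled to that total, as if every library had the same number). Of the markers of both layers of facial tissue, the mesenchymal Mir214 was at 13601 ± 3584 CPM (mean ± SD, n = 2). The epithelial Mir203 was at 28346 ± 10257 CPM and Mir205 at 8107 ± 845 CPM. Not every mesenchymal marker was high: Mir199b was at 961, Mir199a-2 at 286 and Mir199a-1 at 33.4 CPM in mean. These Mir199 genes share a stretch with each other, so under the counting rule above they lack reads with several positions. Intervals below are exact 95% Poisson or binomial intervals from the counts of each library alone, so they cover counting error only. Molecular identifiers are not described, so copies of the same molecule cannot be told apart and the intervals may be too narrow. A read of a miRNA spans the mature product, so levels are not divided by gene length, but levels of different miRNAs also carry the biases of adapter ligation. Each result below is for whole tissue, in which fewer cells of a type and less RNA per cell cannot be told apart.

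Mir375 stood well above the counted level of each miR-7 gene and ranked 103rd in mean level among all miRNA genes. Under the counting rule above, Mir7-1 and Mir7-2 lack the reads of miR-7a-5p that fit both. The levels therefore do not compare miR-375 with miR-7a. It had 2131 counts in replicate 1 and 7901 in replicate 2, or 783.7 CPM (interval 751 to 818) and 1197 CPM (1171 to 1223). Replicate 2 was the higher library, the intervals did not overlap, and the mean was 990 ± 292 CPM (SD, n = 2), so the SD was 29.5% of the mean.

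Mir7b, the only source of miR-7b, ranked 176th. It had 431 and 1336 counts, or 159 CPM (interval 144 to 174) in replicate 1 and 202 CPM (192 to 214) in replicate 2. Replicate 2 was again higher, with intervals that did not overlap, and the mean was 180 ± 31.0 CPM (SD, n = 2).

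Mir7-1, the copy in Hnrnpk, ranked 213th. It had 224 and 430 counts, or 82.4 CPM (interval 71.9 to 93.9) in replicate 1 and 65.1 CPM (59.1 to 71.6) in replicate 2. Here replicate 1 was the higher library and the intervals lay just apart, around a mean of 73.8 ± 12.2 CPM (SD, n = 2).

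Mir7-2 was the lowest of the 4 and ranked 269th. Its 46 and 121 counts gave 16.9 CPM (interval 12.4 to 22.6) in replicate 1 and 18.3 CPM (15.2 to 21.9) in replicate 2. The intervals overlapped widely, and the mean was 17.6 ± 0.997 CPM (SD, n = 2). This level was above what a count of 0 allows, 3 counts or 1.10 CPM in replicate 1 and 0.454 CPM in replicate 2.

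**Figure D2:**
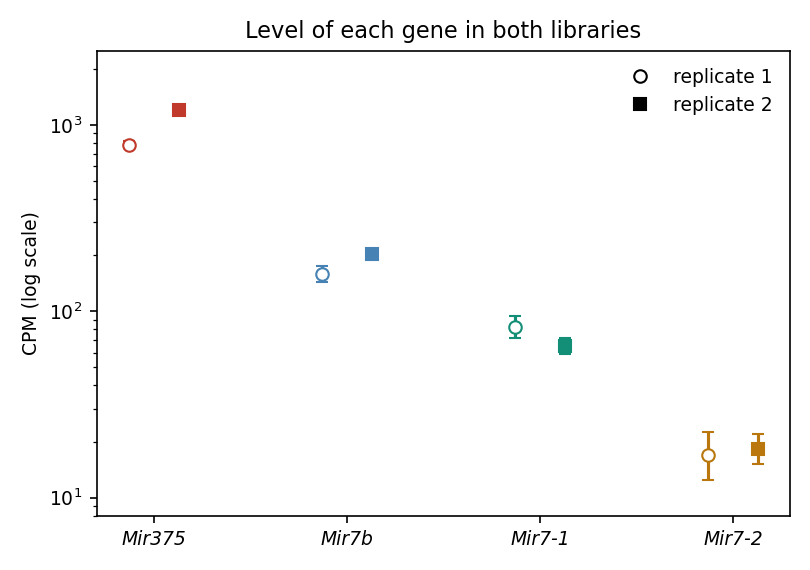
CPM of each gene on a log axis, open circles for replicate 1 and filled squares for replicate 2, with exact 95% Poisson intervals. Mir375 lies near 1000 CPM and Mir7-2 near 20 CPM, and the order of the 4 genes is the same in both libraries.

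The order Mir375, Mir7b, Mir7-1, Mir7-2 held in each library, and no gene's range over the libraries reached that of the next. The 4 genes summed to 1042 CPM in replicate 1 and 1483 CPM in replicate 2, which is 0.104% and 0.148% of the gene-strand miRNA counts. Mir375 made up 75.2% of their counts in replicate 1 (interval 73.6 to 76.8) and 80.7% in replicate 2 (79.9 to 81.5). The miR-7 genes together were closer between libraries, at 258 and 286 CPM (272 ± 19.8, SD, n = 2). Within that sum opposite shifts offset each other in part. Mir7b was higher in replicate 2 (159 CPM in replicate 1 and 202 CPM in replicate 2), and Mir7-1 was lower (82.4 and 65.1 CPM). This order and these sums and shares leave out reads of miR-7a-5p that fit both Mir7-1 and Mir7-2.

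Ratios between members within a library need no scaling between libraries. Mir375 had 4.94 times the counts of Mir7b in replicate 1 (interval 4.46 to 5.50) and 5.91 times in replicate 2 (5.58 to 6.27). Against Mir7-1 it had 9.51 times the counts in replicate 1 (8.29 to 11.0) and 18.4 times in replicate 2 (16.7 to 20.3). Both ratios were larger in replicate 2, that to Mir7-1 by more than that to Mir7b. The ratio to Mir7-1 is not a ratio of miR-375 to miR-7a, since reads that fit both Mir7-1 and Mir7-2 are left out.

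The makeup of the counted miR-7 reads also differed between the libraries. Mir7b held 61.5% of them in replicate 1 (interval 57.8 to 65.1) and 70.8% in replicate 2 (68.7 to 72.8). Mir7-1 held 32.0% in replicate 1 (28.5 to 35.5) and 22.8% in replicate 2 (20.9 to 24.7), a lower share. The share of Mir7-2 was 6.56% (4.84 to 8.66) and 6.41% (5.35 to 7.61). The intervals of Mir7b and of Mir7-1 did not overlap between libraries, while those of Mir7-2 did. Reads of miR-7a-5p that fit both Mir7-1 and Mir7-2 are outside these shares.

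The libraries were then compared gene by gene with an exact two-sided binomial test on 372 genes with a mean of at least 10 counts, scaled by TMM, an edgeR method that sets library sizes from the bulk of genes. It compares the reads of 2 libraries, not conditions, with Benjamini-Hochberg adjustment over all 372 genes. All 4 genes entered the test, and 2 of them were called, both higher in replicate 2. The background was high: 52.2% of all tested genes were called, 27.4% as higher and 24.7% as lower in replicate 2. A count of 2 of 4 is near the share of all genes at this count filter. The median log2 ratio of the 4 genes, replicate 2 over replicate 1, was 0.35, against -0.017 over all tested genes.

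Mir375 was 1.67-fold higher in replicate 2, a log2 ratio of 0.74 (counting SE 0.035, exact binomial test, adjusted p = 4.96e-105). Of the 372 tested genes 37 (9.95%) had a log2 ratio of larger size. Among the 47 other tested genes with a mean level within 2-fold of Mir375, 40 were called and 2 had a larger one. Mir7b was 1.39-fold higher, a log2 ratio of 0.48 with an SE of 0.080 (exact binomial test, adjusted p = 3.31e-09), and 79 tested genes (21.2%) had a larger one.

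Mir7-1 and Mir7-2 did not pass the test. The log2 ratio of Mir7-1 was -0.21 with an SE of 0.12 (exact binomial test, adjusted p = 0.126), and that of Mir7-2 was 0.23 with an SE of 0.25 (adjusted p = 0.483 by the exact binomial test). Of the tested genes, 57.5% had a log2 ratio of larger size than Mir7-1, and 53.2% than Mir7-2. With total counts in place of TMM, where 53.0% of genes were called, Mir7-1 was called lower in replicate 2 at a log2 ratio of -0.34 (exact binomial test, adjusted p = 0.0108). TMM moved every log2 ratio up by 0.13 relative to total counts, so the sign of each member was the same under both but the call of Mir7-1 was not.

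A test that allows for spread beyond counting called none of the 4. Across the tested genes the libraries differed with a biological coefficient of variation of 20.9%, estimated by edgeR from the same 2 libraries with no contrast. With that spread, edgeR's exact negative binomial test called 3 genes (0.806%), Mir1298, Mir196b and Mir448, which were named because they were the only calls, and 13 at an unadjusted p under 0.05. Its unadjusted p was 0.0883 for Mir375, 0.276 for Mir7b, 0.638 for Mir7-1 and 0.665 for Mir7-2, and the adjusted p was 1 for each. Mir375 and Mir7b thus passed the test against counting error and missed the one that adds the spread over all genes. That spread holds the very differences tested, so few calls were likely in advance. Missing this test therefore does not show that a gene is alike in both libraries.

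**Figure D3:**
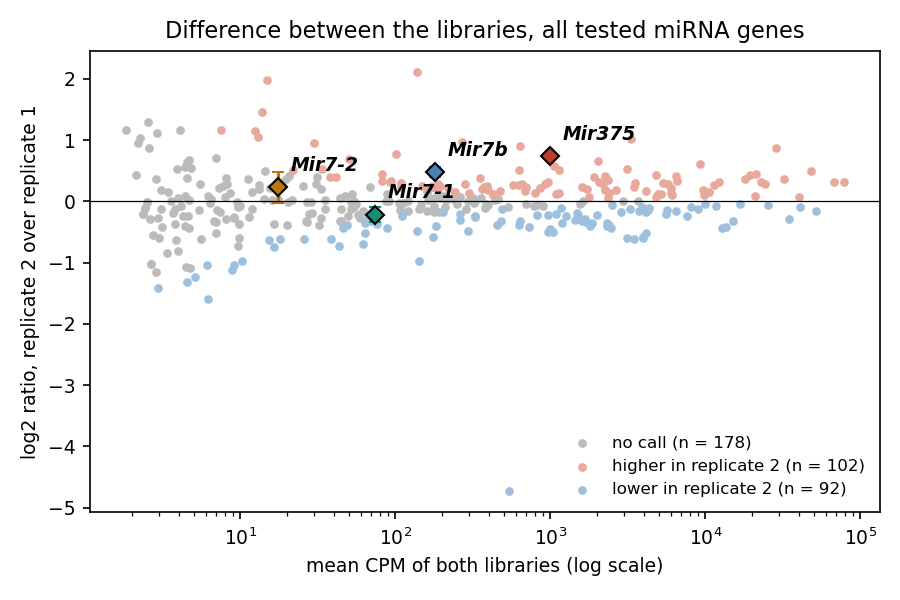
Log2 ratio of replicate 2 over replicate 1 against mean CPM (log axis) for the 372 tested miRNA genes, coloured by the call of the binomial test, with the 4 genes as diamonds and their counting SE as bars. Mir375 and Mir7b lie above most genes of like level, at 0.74 and 0.48, while Mir7-1 lies below 0.

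The genes next to each member in mean level ran from 16.5 CPM beside Mir7-2 to 1051 CPM beside Mir375. Above Mir375 stood Mir195a (1051 ± 229 CPM, SD, n = 2) and Mir107 (1036 ± 311 CPM). Just below it were Mir181b-2 (990 ± 272 CPM) and Mir199b (961 ± 289 CPM), the latter a mesenchymal miRNA. Mir107, Mir181b-2 and Mir199b were all called lower in replicate 2, the reverse of Mir375.

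Mir7b stood between Mir128-2 (184 ± 7.97 CPM, SD, n = 2) and Mir138-1 (182 ± 45.7 CPM) above, and Mir377 (179 ± 5.49 CPM) and Mir328 (178 ± 17.6 CPM) below. Around Mir7-1 were Mir701, Mir106a, Mir331 and Mir5099, between 69.3 and 76.5 CPM in mean. Around Mir7-2 were Mir1249, Mir6240, Mir384 and Mir488, between 16.5 and 18.6 CPM. In all 16 such pairs the ranges over the libraries overlapped, which was likely in advance for genes picked as nearest in mean level. The ranks among such neighbours are not separated by these replicates.

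Likeness of the difference between libraries was taken as the smallest gap in log2 ratio among tested genes within 2-fold of a member's level, over 2 libraries only. For Mir375 these were Mir195a (0.57), Mir204 (0.90) and Mir223 (0.51), each higher in replicate 2. For Mir7b they were Mir24-2 (0.39), Mir874 (0.33) and Mir144 (0.32). For Mir7-1 they were Mir701 (-0.22), Mir33 (-0.23) and Mir363 (-0.24), and for Mir7-2 they were Mir129-2 (0.22), Mir150 (0.25) and Mir199a-1 (0.21).

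The marker lists below are read against all 372 tested genes, of which 27.4% were called higher and 24.7% lower in replicate 2 (64 higher and 133 lower with total counts). The negative binomial test of edgeR called 0 genes of any list, and at an unadjusted p under 0.05 it had 1, in the keratinocyte list. That test uses a spread that holds the differences tested, so few calls were likely. The calls given for the lists are those of the binomial test, against counting error only. Such calls are also more frequent at higher counts. Of the tested genes within 2-fold of Mir375 in level 40 of 47 were called, and 14 of 53 within 2-fold of Mir7-2. The shares over all genes are thus no matched background for lists of much higher or lower counts.

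Other miRNAs of islet and neuroendocrine cells were each below Mir375 in level, and none was called between the libraries. The list held Mir132 and Mir212, which respond to the transcription factor CREB, Mir184 and Mir802 of islets, Mir153, which acts on proteins of secretory vesicles, and Mir129-1 and Mir129-2. Their sum was 295 CPM in replicate 1 and 289 CPM in replicate 2, below Mir375 alone. Mir132 was highest, at 165 CPM in replicate 1 and 159 CPM in replicate 2. Of 7 tested genes 0 were called by the exact binomial test, against 52.2% of all tested genes, and 0 had an unadjusted p under 0.05 in it or in edgeR's negative binomial test. Their median log2 ratio was 0.087. Mir129-1 and Mir129-2 share a 20-base stretch, so reads within it have several positions.

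miRNAs of the miR-200 family and the Mir183 cluster, found in pituitary, sensory and other epithelia, were far more abundant, and most were called higher in replicate 2 by the binomial test. They summed to 41316 CPM in replicate 1 and 44722 CPM in replicate 2, led by Mir429 at 10828 CPM in replicate 1 and 11895 CPM in replicate 2. Of 8 tested genes 7 were called higher and 0 lower, against 27.4% and 24.7% of all tested genes, with a median log2 ratio of 0.24 and the largest for Mir96 at 0.53. With total counts 5 were higher and 1, Mir182, was lower. The log2 ratio of Mir375 (0.74) was above that of every gene of this list.

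The keratinocyte miRNAs Mir203 and Mir205 moved in opposite directions. Mir203, a miRNA of differentiating epidermis, was at 21094 CPM in replicate 1 and 35599 CPM in replicate 2, a log2 ratio of 0.88. Mir205, a miRNA of basal epithelial cells, was at 8705 CPM in replicate 1 and 7509 CPM in replicate 2, a log2 ratio of -0.088. Mesenchymal miRNAs summed to 17643 CPM in replicate 1 and 12119 CPM in replicate 2, with 2 of 4 called lower (3 with total counts) and 0 higher, against 24.7% of all genes lower. Their log2 ratios were -0.42 for Mir214, -0.50 for Mir199b, -0.11 for Mir199a-2 and 0.21 for Mir199a-1. Mir199a-2 and Mir199a-1 were not called. Of these 4 genes 3, Mir199a-1, Mir199a-2 and Mir199b, share a 20-base stretch, so their counts lack reads with several positions, and Mir214 shares none. Mir375 and Mir7b were higher in the library with more Mir203 and less Mir214. In that library Mir205 was lower, Mir199a-1 was higher without a call, and the member Mir7-1 was lower without a call. The part of these cell types in the difference was not tested.

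Neural miRNAs had calls in both directions. Their sum was 1527 CPM in replicate 1 and 1184 CPM in replicate 2, led by Mir137, a miRNA of neurons and their progenitors, at 740 CPM in replicate 1 and 522 CPM in replicate 2 (log2 ratio -0.38). Of 8 tested genes 1 was called higher and 2 lower, the latter near the 24.7% of all tested genes, and the median log2 ratio was -0.21. Mir9-3, named after its value was seen, had the highest log2 ratio of the list, 1.17, on 7 and 37 counts, and did not pass (exact binomial test, adjusted p = 0.0610). With total counts 0 were higher and 5 lower. Mir124a-1, Mir124a-2, Mir124a-3 and Mir9-2 had 0 counts in both libraries, and Mir9-1 has no row. The copies of Mir124a share a 20-base stretch with each other, as do those of Mir9, and 12 of the 13 genes of the list share one with another gene, so a count of 0 here does not show that miR-124 or miR-9 is absent.

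Pancreatic and gut miRNAs were each below Mir7b in level, and their sum was near the level of Mir7b alone. The sum was 165 CPM in replicate 1 and 151 CPM in replicate 2, led by Mir192, a gut and liver miRNA, at 75.8 CPM in replicate 1 and 87.5 CPM in replicate 2. Mir217 of the exocrine pancreas was at 19.1 and 11.4 CPM. Of 5 tested genes 1 was called higher and 2 lower, near the 52.2% of all tested genes called either way, with a median log2 ratio of -0.19, and with total counts 0 were higher and 2 lower.

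**Figure D4:**
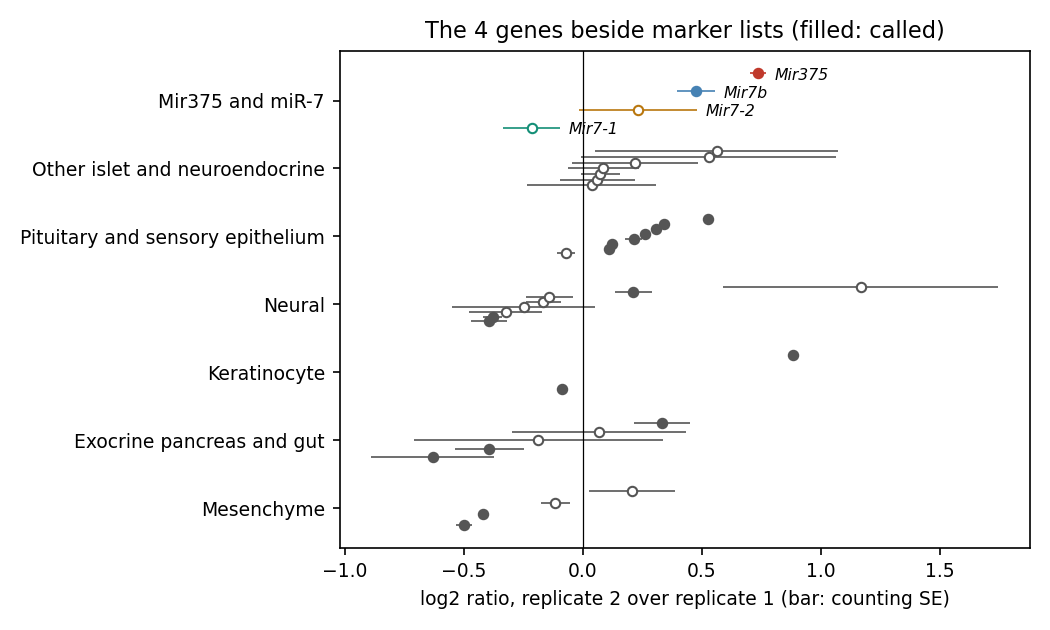
Log2 ratio of replicate 2 over replicate 1 with its counting SE for the 4 genes and for each tested gene of the 6 marker lists, filled where the binomial test made a call. Mir375 (0.74) lies to the right of all genes of the epithelial list, with Mir203 (0.88) and Mir9-3 (1.17, not called) beyond it. Of the mesenchymal list, Mir214 (-0.42), Mir199b (-0.50) and Mir199a-2 (-0.11, not called) lie to the left of 0. Mir199a-1 of that list (0.21, not called) lies to the right of 0.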

How the data were processed

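Small RNA libraries with inserts below 30 bases were made from 2 replicates of 1 group. The authors deposited raw read counts per miRNA gene. The assembly was mm10, per the labels, and the annotation GENCODE M4, per the text files deposited with the tables. Aligner, counter and trimming: not given in the sources used here. The columns have no names. Their layout is that of STAR gene counts (both strands, gene strand, opposite strand), and the gene-strand column was used. The 4 summary rows stayed out of totals and tests. Gene-strand counts made up 48.4% of the reads of replicate 1 and 49.3% of those of replicate 2.

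Symbols came from GENCODE M21 on the same assembly by gene identifier, which named 1894 of 1973 rows. All 4 members matched, Mir375 with another version number. Their GENCODE and RefSeq hairpins were identical.

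CPM was computed over gene-strand totals. The exact binomial test used TMM sizes (edgeR 4.0.16, computed on the genes tested), a mean of at least 10 counts, a prior of 0.5 counts in log2 ratios and a threshold of 0.05 after Benjamini-Hochberg adjustment. The labels name separate biological replicates collected on different days. P-values of the binomial test judge the difference between these libraries against counting error only, not against the spread between replicates. The test was tested on simulated data, which held counting error only and no spread between libraries. Alternatives were the column of both strands, total counts, DESeq2 1.42.0 size factors, removal of the highest gene, other count filters and priors, edgeR's negative binomial exact test with the dispersion of an intercept-only fit, other totals for CPM, and leaving out each replicate. Members, lists and tests were chosen with earlier results of these data known. Named genes are the members, the nearest genes in level and in log2 ratio, and the highest gene of each list, with both genes of the keratinocyte list. Other genes named were chosen after their values were seen.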

Additional observations from a re-analysis of the deposited data

How the results depend on the processing

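No result reversed direction. Over all alternatives the log2 ratio ranged from 0.61 to 0.78 for Mir375, 0.35 to 0.52 for Mir7b, -0.34 to -0.17 for Mir7-1 and 0.11 to 0.28 for Mir7-2. The calls depended on the test. With edgeR's negative binomial exact test 3 genes were called instead of 194 and 0 of the 4 members instead of 2. It adds the spread between libraries to counting error, and that spread, from the same 2 libraries, holds the differences tested. Few calls were thus likely in advance. Mir375 (0.74) and Mir7b (0.48) did not pass that test. Mir7-1 passed with total counts only (-0.34), where the calls were split into 64 higher and 133 lower instead of 102 and 92. Counts of calls under the other alternatives ran from 176 with no count filter to 204 with both strands together. The share called depended on the filter, with 176 of 717 genes called without it and 187 of 261 at a mean of at least 100 counts. Of the members, 2 of 4 were called without a filter and 2 of 3 at that mean. The likeness of 2 of 4 to the share of all genes thus holds for the main filter only. Where the filter changed, TMM was computed on the genes that passed it.

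Levels scaled to all reads were 485 CPM for Mir375, 88.3 for Mir7b, 36.0 for Mir7-1, 8.62 for Mir7-2 and 618 for their sum, by construction lower. Mir7-2 stood at 19.1 CPM with the highest gene, Mirlet7i, left out of the total. Leaving out a replicate gives the values of the other library: 784 to 1197 CPM for Mir375 and 75.2% to 80.7% for its share. A log2 ratio between libraries cannot be had without either replicate, and Mir7-2 is not tested at a mean of at least 100 counts. Depth limits Mir7-2 most, with 46 counts in replicate 1.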
